A study of Homo sapiens with 4 samples.

Results

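RIGI, IFIH1, DHX58, TLR3, MAVS, CGAS, STING1, EIF2AK2, ZBP1 and ADAR encode RNA and DNA sensors of human cells, their adaptors or an RNA-editing enzyme. For brevity all 10 are called sensors below. These 10 genes were chosen by name, RIGI under its older symbol DDX58, from the 39323 genes with a TPM (transcripts per 1000000 transcripts) value in the files. Their levels were measured in RD and JR1 cells, 2 established lines of fusion-negative rhabdomyosarcoma, a childhood tumor with features of skeletal muscle. In each line a pLKO.1-puro lentivirus delivered either 1 hairpin against SKP2 (shSKP2) or a non-targeting hairpin (shSCR), so that both arms carried a vector and a hairpin and both were selected with puromycin. The control is labelled WT for genotype, and the cells were pools of infected cells rather than clones. SKP2 is the substrate-recognition subunit of an SCF ubiquitin ligase, and the design asked what its depletion does to gene expression, differentiation and senescence. There was 1 poly-A RNA library per line and condition, 4 in all, and 0 libraries of untransduced cells were analysed here. Differences are therefore between single libraries, without replicates and without p-values.

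Cells detect viral or misplaced nucleic acids with a small set of proteins. RIG-I (RIGI) and MDA5 (IFIH1) are helicases that bind double-stranded RNA in the cytoplasm and signal through the mitochondrial protein MAVS, while LGP2 (DHX58) is a related helicase without the signaling domains and tunes RIG-I and MDA5. TLR3 binds double-stranded RNA in endosomes. cGAS (CGAS) binds cytosolic DNA and makes cyclic GMP-AMP, which activates STING (STING1) on the endoplasmic reticulum. PKR (EIF2AK2) halts translation when it binds double-stranded RNA, ZBP1 senses Z-form nucleic acid and can start necroptosis, and ADAR edits adenosine in double-stranded RNA, which keeps self RNA from being sensed. MAVS, TLR3 and STING converge on kinases that activate interferon genes, and several of the sensor genes are themselves induced by interferon.

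Upstream sequence was available in the RefSeq table (build GRCh38.p14) for 6 of the 10 genes, with 250 bases before and 50 bases after each transcript start. No entry was at hand for DHX58, CGAS, STING1 or ZBP1. Interferon regulatory factors bind repeated GAAA, so each stretch was searched on both strands for 2 copies separated by 2 bases (GAAANNGAAA) or by 1 base (GAAANGAAA). The shorter spacing was added after the sequences had been seen. The stretches of RIGI and IFIH1, whose transcripts differed most between conditions among the 6 genes with an entry, are shown with those of EIF2AK2 and MAVS, whose transcripts differed little. They lie at chr9:32526147-32526446 (RIGI, minus strand), chr2:162318635-162318934 (IFIH1, minus strand), chr2:37156931-37157230 (EIF2AK2, minus strand) and chr20:3846584-3846883 (MAVS, plus strand). Capitals mark the repeats on either strand.
RIGI: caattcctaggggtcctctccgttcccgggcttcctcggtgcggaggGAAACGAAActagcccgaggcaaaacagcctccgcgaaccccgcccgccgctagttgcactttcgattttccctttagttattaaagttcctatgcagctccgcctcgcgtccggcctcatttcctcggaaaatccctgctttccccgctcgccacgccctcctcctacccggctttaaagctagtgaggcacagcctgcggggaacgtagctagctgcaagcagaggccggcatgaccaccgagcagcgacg
IFIH1: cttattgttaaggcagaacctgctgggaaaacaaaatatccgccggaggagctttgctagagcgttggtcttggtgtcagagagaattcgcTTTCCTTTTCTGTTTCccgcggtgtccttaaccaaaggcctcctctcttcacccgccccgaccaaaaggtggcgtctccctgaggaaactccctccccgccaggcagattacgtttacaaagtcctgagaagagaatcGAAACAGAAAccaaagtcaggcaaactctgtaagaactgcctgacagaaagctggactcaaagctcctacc
EIF2AK2: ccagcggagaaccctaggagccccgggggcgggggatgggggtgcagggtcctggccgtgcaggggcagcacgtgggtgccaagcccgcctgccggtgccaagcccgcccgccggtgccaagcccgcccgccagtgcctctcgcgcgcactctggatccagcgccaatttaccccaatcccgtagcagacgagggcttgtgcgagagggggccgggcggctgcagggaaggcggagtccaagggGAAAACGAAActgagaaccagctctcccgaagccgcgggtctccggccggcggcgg
MAVS: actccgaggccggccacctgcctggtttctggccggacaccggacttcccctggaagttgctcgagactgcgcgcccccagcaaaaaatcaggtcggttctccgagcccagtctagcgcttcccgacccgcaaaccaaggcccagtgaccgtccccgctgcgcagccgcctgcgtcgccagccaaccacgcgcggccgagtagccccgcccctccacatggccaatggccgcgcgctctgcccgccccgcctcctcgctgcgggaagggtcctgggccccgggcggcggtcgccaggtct

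A repeat was found at 4 of the 6 genes. RIGI held 1 copy with the 1-base spacing, which began 203 bases before the start. IFIH1 held 3 copies with the 2-base spacing, 2 of them overlapping on the opposite strand and 1 that began 21 bases before the start. EIF2AK2 held 1 copy across its start, from 6 bases before it, and TLR3, whose stretch is not printed, held 1 on the opposite strand from 4 bases before its start. None was found in the stretch of MAVS or in those of the 3 listed starts of ADAR. Among all 35116 stretches in the table, 3.57% held the longer form, 3.12% the shorter form and 6.40% either. The repeat was present at genes that differed between conditions and at genes that hardly did.

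In the shSCR libraries the sensors were expressed at modest levels and in nearly the same order in both lines. TPM are corrected for transcript length, so levels of different genes can be set side by side. ADAR was the highest sensor in each library, with 115 TPM in RD shSCR and 80.9 TPM in JR1 shSCR, above 95.6% and 94.4% of the retained genes. STING1 followed with 29.4 TPM in RD and 24.9 TPM in JR1, and MAVS with 16.6 and 15.4 TPM. RIGI, EIF2AK2, CGAS, IFIH1 and DHX58 lay between 8.43 and 14.96 TPM in the shSCR libraries, close enough that their order differed between the lines. TLR3 was low, at 1.17 TPM in RD shSCR and 1.97 TPM in JR1 shSCR. ZBP1 was nearly silent, at 0.04 TPM in RD shSCR and 0.22 TPM in JR1 shSCR. With 1 library per value, neighbors in this order cannot be separated by their spread.

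Changes were computed within a line as log2 of TPM + 1 in shSKP2 over TPM + 1 in shSCR, and a gene was retained when its 4 libraries averaged 1 TPM or more, which left 12985 genes. The added 1 understates the changes of low genes. A change of at least 1 on this scale, 2-fold, was counted as past the limit. 9 of the 10 sensors were retained and ZBP1 was not. In the same libraries short structural RNAs such as RN7SL1 and RN7SK took between 50.1% and 64.9% of all TPM, with more in shSKP2 than in shSCR of each line, and the retained genes had a median change of -0.27 (RD) and -0.21 (JR1). Values are for this reason repeated relative to that median, or on rescaled TPM, from which 2640 short structural RNA genes had been taken out and which moved the median to 0.10 and 0.03. How much of any change came from this shift was not tested. The targeted transcript SKP2 was at 92.8 TPM in RD shSCR and 7.40 TPM in RD shSKP2, and at 46.5 and 2.72 TPM in JR1. Depth and RNA quality are not given by TPM. In bulk RNA, fewer cells that express a gene and less RNA per cell cannot be told apart.

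All 3 RIG-I-like receptors were lower after SKP2 depletion in both lines, and so was STING1. These 4 of the 9 retained sensors were past the limit on the lower side in RD, in JR1 and in both lines together, and 0 sensors were past it on the higher side. Over all retained genes 7.37% were lower past the limit in RD, 9.05% in JR1 and 4.79% in both, and 1.08% and 1.78% were higher. The sensors were chosen with earlier results of these data known, so their counts against these shares are a description and not independent support. On rescaled TPM RIGI, IFIH1 and DHX58, 3 of the 9, were past the limit in RD, where 3.42% of genes were lower, and all 4 in JR1, where 6.73% were. The median change of the 9 sensors was -0.53 for RD and -0.66 for JR1, which becomes -0.26 and -0.45 after centring on the median of all retained genes. Of the 9, 8 had a change below 0 in each line, and 6 in RD and 7 in JR1 lay below the median of all retained genes.

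RIGI encodes RIG-I, which recognizes short double-stranded RNA with a triphosphate end, and occupies chr9:32455302-32526196 (GRCh38 positions of the files). It was at 15.0 TPM in RD shSCR, 4.21 TPM in RD shSKP2, 11.7 TPM in JR1 shSCR and 2.44 TPM in JR1 shSKP2. Both shSKP2 libraries were below both shSCR libraries, by 3.55-fold in RD and by 4.79-fold in JR1. The log2 changes were -1.62 for RD and -1.88 for JR1, and 1.59% and 1.25% of all retained genes had a lower value. On rescaled TPM they were -1.35 and -1.83.

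IFIH1 encodes MDA5, which recognizes long double-stranded RNA, and lies at chr2:162267074-162318684. It was at 11.1 TPM in RD shSCR and 3.07 TPM in RD shSKP2, and at 11.3 TPM in JR1 shSCR and 1.25 TPM in JR1 shSKP2. The shSCR libraries of the lines differed by -0.02 on the log2 scale (RD minus JR1), and the JR1 shSKP2 library was the lowest of the 4. The fold difference was 3.62 in RD and 9.02 in JR1, with log2 changes of -1.57 and -2.45. IFIH1 had the lowest change of the sensors in JR1, where 0.454% of retained genes were lower. Its changes differed between the lines by 0.88, the widest gap among the sensors, and by 1.23 on rescaled TPM. Of all retained genes 2.76% had changes that differed between the lines by at least 1. This difference was not tested, since no line has a replicate.

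DHX58 encodes LGP2, which binds the same kinds of RNA and modulates RIG-I and MDA5, and lies at chr17:42101404-42112721. It was at 11.1 TPM in RD shSCR, 3.01 TPM in RD shSKP2, 10.1 TPM in JR1 shSCR and 1.84 TPM in JR1 shSKP2. The levels were 3.67-fold lower in RD and 5.50-fold lower in JR1. The log2 changes were -1.59 and -1.97, and -1.37 and -1.98 on rescaled TPM. In RD the 3 receptors changed by nearly the same amount, and in JR1 IFIH1 changed more than the other two.

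MAVS, the adaptor on which RIG-I and MDA5 depend, was level between conditions. The gene lies at chr20:3846834-3876118, and its level was 16.6 TPM in RD shSCR, 15.2 TPM in RD shSKP2, 15.4 TPM in JR1 shSCR and 15.5 TPM in JR1 shSKP2. The 4 libraries hardly differed, and those of JR1 least. The changes were -0.12 for RD and 0.01 for JR1, and 0.27 and 0.29 on rescaled TPM, so its direction in RD depended on the scaling.

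The ratio of receptor to adaptor within a library does not depend on the TPM total, and was computed after the values of MAVS had been seen. The summed TPM of RIGI, IFIH1 and DHX58 was 37.1 in RD shSCR and 10.3 in RD shSKP2, and 33.1 in JR1 shSCR and 5.53 in JR1 shSKP2. Per TPM of MAVS the sum was 2.24 in RD shSCR and 0.677 in RD shSKP2, and 2.15 in JR1 shSCR and 0.357 in JR1 shSKP2. The sum was thus above MAVS in both shSCR libraries and below it in both shSKP2 libraries, while each receptor alone was below MAVS in all 4, RIGI being nearest with 0.902 per TPM of MAVS in RD shSCR. The log2 change of this ratio was -1.73 in RD and -2.59 in JR1. For STING1 the same ratio changed by -1.08 and -1.60, for ADAR by -0.41 and -0.68, and for EIF2AK2 by less than 0.01 in RD and by -0.28 in JR1.

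**Figure D1:**
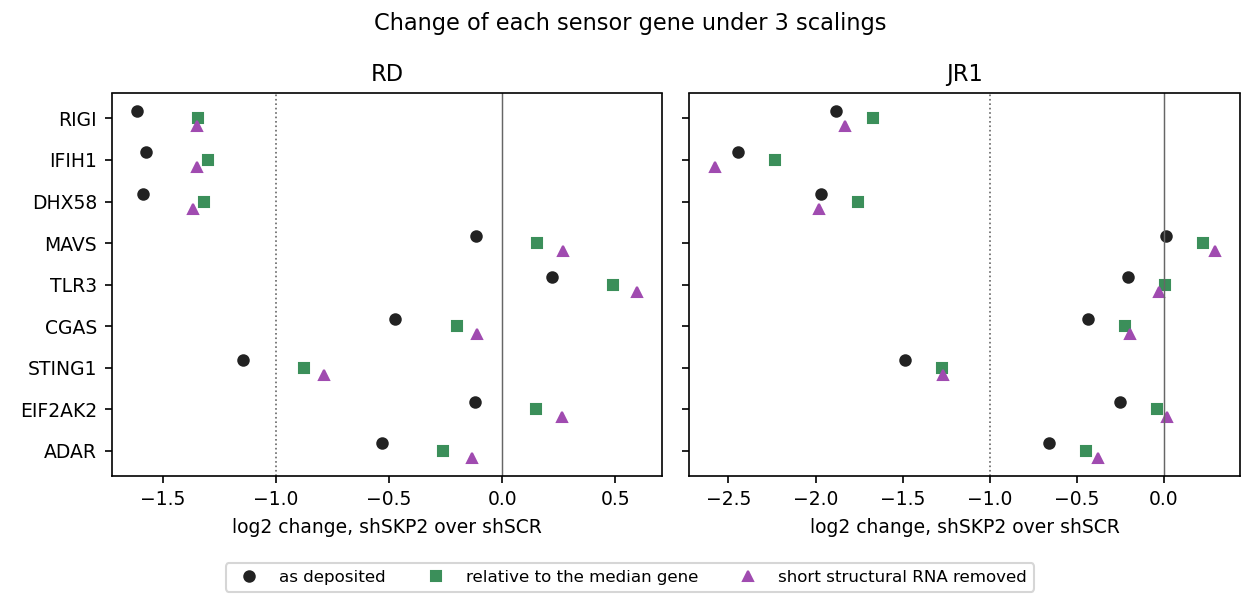
Log2 change of each of the 9 retained sensors in RD (left) and JR1 (right) with TPM as deposited (circles), relative to the median of all retained genes (squares) and on rescaled TPM without short structural RNA genes (triangles), with a dotted line at the limit of -1. RIGI, IFIH1 and DHX58 stay past the limit in both lines under these 3 scalings, and STING1 does so in JR1 but not in RD, where it moves from -1.15 to -0.88 and -0.79.

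STING1, the adaptor of the DNA branch, was at 29.4 TPM in RD shSCR, 12.7 TPM in RD shSKP2, 24.9 TPM in JR1 shSCR and 8.24 TPM in JR1 shSKP2. The gene lies at chr5:139475533-139482758. It was 2.31-fold lower in RD and 3.02-fold lower in JR1, with log2 changes of -1.15 and -1.49, and 5.08% and 2.99% of retained genes had a lower value. In RD STING1 was thus just past the limit, and ADAR with -0.53 was the next sensor and did not reach it. Relative to the median of all retained genes the change of STING1 was -0.88 in RD, no longer past the limit, and -1.27 in JR1.

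CGAS, which encodes the DNA sensor upstream of STING and lies at chr6:73423711-73452297, differed much less than STING1. It was at 12.3 TPM in RD shSCR and 8.56 TPM in RD shSKP2, and at 8.43 TPM in JR1 shSCR and 5.97 TPM in JR1 shSKP2. The log2 changes were -0.47 and -0.44, and on rescaled TPM -0.11 and -0.20. Many genes had a lower change, 30.9% of those retained in RD and 32.3% in JR1.

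EIF2AK2, which encodes PKR and lies at chr2:37099210-37157065, was at 12.7 TPM in RD shSCR, 11.6 TPM in RD shSKP2, 13.97 TPM in JR1 shSCR and 11.6 TPM in JR1 shSKP2. Its changes were -0.12 in RD and -0.25 in JR1. On rescaled TPM they were 0.26 and 0.02, on the other side of 0. PKR is itself induced by interferon, as the RIG-I-like receptors are. The end of EIF2AK2 overlaps GPATCH11, which had from 3.48 to 5.39 TPM, and whether reads were counted by strand is not given in the sources used here. The log2 profiles of EIF2AK2 and MAVS over the 4 libraries lay 0.21 apart, between those of RIGI and DHX58 at 0.17 and of RIGI and IFIH1 at 0.40. The part of interferon in these profiles was not tested.

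ADAR lies at chr1:154582057-154627997 and was at 115 TPM in RD shSCR, 79.5 TPM in RD shSKP2, 80.9 TPM in JR1 shSCR and 50.7 TPM in JR1 shSKP2. Each shSKP2 library was below the shSCR library of its line, and the RD shSKP2 library was level with JR1 shSCR. The log2 changes were -0.53 and -0.66, and -0.13 and -0.38 on rescaled TPM. ADAR has a constitutive and an interferon-induced transcript, and the values are per gene, so these transcripts cannot be told apart. The position of ADAR overlaps that of CHRNB2, which had at most 0.25 TPM in any library.

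TLR3, the endosomal sensor, lies at chr4:186069156-186088073 and was at 1.17 TPM in RD shSCR, 1.53 TPM in RD shSKP2, 1.97 TPM in JR1 shSCR and 1.57 TPM in JR1 shSKP2. Its change was 0.22 for RD and -0.21 for JR1, in opposite directions, and 0.59 and -0.03 on rescaled TPM. ZBP1, at chr20:57603852-57620480, was at 0.04 TPM in RD shSCR, 0.14 TPM in RD shSKP2, 0.22 TPM in JR1 shSCR and 0.11 TPM in JR1 shSKP2. At such levels ZBP1 was not retained, and its change enters only the flagged results and the setting with no minimum.

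Between the control libraries 0 of the 9 retained sensors differed by the limit. Of all retained genes 9.94% did in either direction, and in so short a list 0 is near this share. RD minus JR1 in shSCR was highest for ADAR at 0.51 and CGAS at 0.49 and lowest for TLR3 at -0.45, where the median of all retained genes was 0.23. IFIH1 differed by -0.02 and DHX58 by 0.12. In the shSKP2 libraries, where the median of all retained genes was 0.17, IFIH1 was higher in RD than in JR1 by 0.86. ADAR was higher by 0.64, RIGI by 0.60, STING1 by 0.57, DHX58 by 0.50 and CGAS by 0.46. TLR3 differed by -0.02, MAVS by -0.03 and EIF2AK2 by 0. The 4 sensors past the limit were all lower in JR1 than in RD after depletion, and so were ADAR and CGAS, which were inside it.

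The other genes of the pathway were read from 8 lists of 105 genes, of which 90 were retained. In RD 14 of them were lower past the limit, in JR1 18, and in both lines 11, against 7.37%, 9.05% and 4.79% of all retained genes, and 0 were higher past it in either line. On rescaled TPM, which retained 92 of them, the counts were 12 in RD and 15 in JR1, against 3.42% and 6.73% of all genes. On that scale 3 were higher, namely TLR9 in both lines and CYLD and LRRC8A in JR1. As deposited, 7 of the 11 belong to the list of interferons and early transcripts of sensor signaling, whose members were known from earlier results of these data to be lower. They are CCL5, IFIT1, IFIT2, IFIT3, ISG15, OASL and RSAD2, and they are also among the 14 in RD and the 18 in JR1. All of these counts therefore rest in part on genes chosen with their direction known. As deposited, leaving out those 7 brings the share in both lines to about that of all retained genes. The shares in RD and in JR1 also come nearer to those of all retained genes, and no drop across the pathway is read from them. The others of the 11 were DDX60, ZC3HAV1, MEX3C and SAMHD1, of which MEX3C was inside the limit on rescaled TPM. IFNL1, not retained as deposited, was lower past the limit in both lines on rescaled TPM, where it passed the minimum through its shSCR libraries.

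Among 11 other sensors 7 were retained, with medians of -0.56 in RD and -0.27 in JR1. After centring these medians were -0.29 and -0.06, so little of a drop was left in JR1. On rescaled TPM, with 8 of the list retained, they were -0.02 and 0.11. Of the 7, 1 gene, DDX60, was lower past the limit in both lines, against 4.79% of all retained genes. DDX60 encodes a helicase reported to assist RIG-I, and it was at 6.53 TPM in RD shSCR, 1.04 TPM in RD shSKP2, 8.30 TPM in JR1 shSCR and 0.82 TPM in JR1 shSKP2. Its changes of -1.88 and -2.35 were lowest of the list in both lines. As deposited, DDX60 passed the minimum through its shSCR libraries, so the filter favored its count as lower. The highest changes were those of TLR9, a receptor for unmethylated DNA, with 0.72 in RD and 0.94 in JR1. Its levels were low, 0.18 and 0.95 TPM in the RD libraries and 1.29 and 3.38 TPM in those of JR1, and on rescaled TPM the changes were 1.37 and 1.41. As deposited, TLR9 passed the minimum through its shSKP2 libraries, so the filter favored a gene with a rise. IFI16, a nuclear DNA sensor, was well expressed and differed little, with 63.6 and 65.0 TPM in RD and 69.0 and 56.9 TPM in JR1 in shSCR and shSKP2. TLR8 was listed at 0 in all 4 libraries, and TLR7 and AIM2 had at most 0.04 TPM.

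All 20 genes of the list of adaptors, kinases and transcription factors downstream were retained. 1 of the 20 was lower past the limit in RD, where 7.37% of retained genes were, and 3 in JR1, where 9.05% were, with list medians of -0.61 and -0.69, or -0.34 and -0.47 relative to the median of all retained genes. On rescaled TPM 0 were lower in RD and 2 in JR1, against 3.42% and 6.73%. The lowest in RD was TRAF3, an adaptor of MAVS signaling, at -1.12, with 6.64 TPM in shSCR and 2.51 TPM in shSKP2. Its change on rescaled TPM was -0.90, inside the limit. The lowest in JR1 was IRF7, an interferon-induced transcription factor, at -1.78, with 12.2 TPM in shSCR and 2.83 TPM in shSKP2, and its change in RD was -0.81. The highest in both lines was AZI2, a binding partner of the kinase TBK1, at 0.28 and 0.46. TBK1 itself was at 7.07 and 6.80 TPM in RD and 7.90 and 7.35 TPM in JR1. The related kinase IKBKE changed by -0.74 and -0.93, the transcription factor IRF3 by -0.57 and -0.79, and TICAM1, the adaptor of TLR3, by 0.00 and -0.26.

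Of the 15 regulators of RIG-I, MDA5 and MAVS, all retained, 2 were lower past the limit in RD and 4 in JR1, against 7.37% and 9.05% of retained genes, with medians of -0.32 and -0.55. On rescaled TPM 1 was lower in each line, against 3.42% and 6.73%. ZC3HAV1 encodes the zinc finger antiviral protein ZAP, whose short form is reported to bind RIG-I. It was at 105 TPM in RD shSCR, 18.4 TPM in RD shSKP2, 75.4 TPM in JR1 shSCR and 13.6 TPM in JR1 shSKP2. Its changes of -2.45 and -2.38 were the lowest of the list in both lines and were near those of IFIH1 in JR1. MEX3C, a ubiquitin ligase reported to act on RIG-I, changed by -1.12 and -1.04. TRIM25, the ubiquitin ligase long tied to RIG-I, changed by -0.36 and -0.64. The highest were RNF125 in RD at 0.43, a ligase that acts against RIG-I and MDA5, and the deubiquitinase CYLD in JR1 at 0.67.

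Of the 15 partners and regulators of cGAS and STING 14 were retained, and 0 were past the limit in either line. Of all retained genes 7.37% were lower past it in RD and 9.05% in JR1, and 1.08% and 1.78% were higher. In so short a list, 0 is near these shares. The list medians were -0.21 in RD and -0.06 in JR1, or 0.06 and 0.15 above those of all retained genes. BANF1, a chromatin protein that keeps cGAS off nuclear DNA, was lowest in RD at -0.70, and the ubiquitin ligase TRIM56 in JR1 at -0.96. LRRC8A, a subunit of a channel that passes cyclic GMP-AMP, was highest at 0.47 and 0.72.

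The list of nucleases and RNA decay factors that limit self ligands held 13 genes, all retained, with 3 lower past the limit in RD and 2 in JR1, against 7.37% and 9.05% of retained genes, and medians of -0.47 and -0.40. On rescaled TPM 2 were lower in each line, against 3.42% and 6.73%. As deposited, RNASEH2B, 1 of the 3 in RD, passed the minimum through its shSCR libraries. It was at 1.14 TPM in RD shSKP2 and 0.71 TPM in JR1 shSKP2. SAMHD1, a hydrolase of nucleotides, was at 16.1 TPM in RD shSCR, 5.09 TPM in RD shSKP2, 17.6 TPM in JR1 shSCR and 3.36 TPM in JR1 shSKP2. It was the lowest of the list in both lines, at -1.49 and -2.09. TREX1, the main cytosolic DNA exonuclease, was at 11.98 and 6.65 TPM in RD and at 9.55 and 2.62 TPM in JR1, with changes of -0.76 and -1.54. DICER1, which cuts double-stranded RNA, was highest at 0.31 and 0.55. ADARB1, the other editing enzyme, was at 0.17 and 0.43, in the direction opposite to ADAR.

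The eIF2alpha kinases and their readouts, 10 genes and all retained, gave 0 genes past the limit in either line. Of all retained genes 7.37% were lower past it in RD and 9.05% in JR1, and 1.08% and 1.78% were higher. Here too, 0 is near these shares in so short a list. The list medians were -0.22 in RD and -0.08 in JR1. EIF2AK1, EIF2AK3 and EIF2AK4, the other kinases of the family of PKR, changed by -0.50, -0.26 and -0.50 in RD and by -0.25, -0.31 and -0.25 in JR1, and EIF2AK3 was lowest of the list in JR1. ATF4, whose translation rises when eIF2alpha is phosphorylated, was lowest in RD at -0.72. DDIT3 was highest in RD at 0.32 and PPP1R15B in JR1 at 0.19. Of the 6 necroptosis partners of ZBP1 and trafficking factors of TLR3, 4 were retained, with medians of -0.67 and -0.68. Of these 4, 0 were lower past the limit in RD and 1 in JR1, against 7.37% and 9.05% of retained genes. The gene in JR1 was MLKL, the executioner of necroptosis, with 3.61 and 2.03 TPM in RD and 5.70 and 1.16 TPM in JR1. RIPK3, the kinase between ZBP1 and MLKL, was listed at 0 in all 4 libraries. In this list CNPY3, a chaperone of Toll-like receptors, was lowest in RD at -0.82 and highest in JR1 at -0.35, and HSP90B1 was highest in RD at -0.49.

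Of the 15 interferons and early transcripts 7 were retained, with medians of -4.21 in RD and -3.85 in JR1. All 7 were lower past the limit in both lines, as were 4.79% of all retained genes. Members of this list were known from earlier results of these data to be lower, so the count is not a separate finding. RSAD2 passed the minimum through its shSCR libraries, with 0.27 TPM in RD shSKP2 and 0.15 TPM in JR1 shSKP2. Their changes ran from -5.75 for OASL to -2.67 for IFIT1 in RD, and from -5.62 for CCL5 to -2.86 for ISG15 in JR1. The other 8 were not retained. IFNB1, the type I interferon made by most cells, was listed at 0 TPM in RD shSCR, 0.07 TPM in RD shSKP2, 0.08 TPM in JR1 shSCR and 0 TPM in JR1 shSKP2. IFNL1, a type III interferon, was at 1.11 TPM in RD shSCR, 0.08 TPM in RD shSKP2, 2.35 TPM in JR1 shSCR and 0 TPM in JR1 shSKP2. Both were at most 0.08 TPM in each library apart from IFNL1 in the shSCR libraries.

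The genes with the nearest profiles were sought among the other retained genes by the Euclidean distance between log2(TPM + 1) values over the 4 libraries, each gene centred on its own mean. For RIGI they were DOK1 at 0.10 and MMP23B at 0.14, for DHX58 PITPNM1 at 0.06 and RAB42 at 0.09, for IFIH1 SCOC at 0.24 and CMPK2 at 0.28, and for STING1 LY6E and NAA15 at 0.08 each. IFIH1 had the most distant neighbors. For MAVS, EIF2AK2, CGAS, ADAR and TLR3 the nearest were PGAM5, NOP16, PIKFYVE, ZNF114 and UQCC1, and the second nearest OVCA2, PIGM, SIVA1, GPKOW and TOM1, at distances from 0.02 to 0.06. Among the sensors RIGI and DHX58 were nearest to each other, 0.17 apart. With 4 libraries such a profile has few degrees of freedom, and 622 retained genes were lower past the limit in both lines.

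The labelled cell type was checked against its markers. MYOD1, MYOG, DES, CHRNA1 and CDH15 had from 31.6 TPM for MYOG in RD shSCR to 425 TPM for CHRNA1 in JR1 shSKP2, and MYF6 had at most 0.50 TPM. The summed TPM of these 6 markers was 401 in RD shSCR and 569 in RD shSKP2, and 550 in JR1 shSCR and 778 in JR1 shSKP2. DES was lower in JR1 shSKP2, at 35.97 TPM, than in JR1 shSCR, at 51.3 TPM. The part of this shift in the changes of the sensors was not tested. Leukocytes, which carry many of the sensors, left little trace, with a sum over 7 markers between 2.66 and 3.15 TPM in all libraries, most of it from CD68, and with CLEC4C and MS4A1 at 0 in all 4 and PTPRC at no more than 0.01 TPM. The sums of 4 epithelial and 3 endothelial markers were at most 0.19 and 0.45 TPM.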

How the data were processed

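Poly-A RNA of 4 libraries was sequenced as pairs of 150 bases, 1 library per line and condition. Per the labels and the study's methods, the authors used STAR 2.7.9a for alignment to GRCh38 and RSEM 1.3.2 to estimate expression. The deposited TPM values, 1 per gene with 2 decimals, sum to 1000000 in each library and keep no read counts, so depth and counting error are unknown. Whether reads were counted by strand is not given in the sources used here.

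TPM were used as deposited. Changes were log2 ratios of TPM + 1 among the 12985 genes that averaged 1 TPM or more, and the limit was 2-fold. No test was run. Alternatives were 0.1 TPM as the added constant, centring on the median, removal of 2640 short structural RNA genes by symbol (3055 with RMRP, RPPH1 and transfer RNA), no minimum, a minimum of 5 TPM and a limit of 1.5-fold. Named genes were the sensors, SKP2, fixed members of the pathway, the highest and lowest of each list, list members past the limit in both lines, and the 2 nearest profiles per sensor. The members and lists were chosen with earlier results of these data known. The change computation was tested on simulated data. Python 3.11.15, numpy 2.4.6, pandas 2.3.3 and matplotlib 3.10.9 were used.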

Additional observations from a re-analysis of the deposited data

Results flagged for a closer look

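For 3 sensors the changes in RD and JR1 had opposite signs, and this difference was not tested because each line has 1 library per condition. The change of TLR3 in RD exceeded that in JR1 by 0.43 on the log2 scale, and relative to the median of all retained genes it was at or above 0 in both lines, 0.49 and 0.01. The change of MAVS in RD minus that in JR1 was -0.13, with values near 0 in both. For ZBP1 the difference was 0.27, at levels of no more than 0.220 TPM in any library.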

How the results depend on the processing

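RIGI, IFIH1 and DHX58 were lower past the limit in both lines under each added constant and scaling tried, from -1.30 to -1.84 in RD and from -1.67 to -3.07 in JR1. STING1 was so in JR1 throughout, and in RD it was at -0.88 after centring, -0.79 without the short structural RNA genes and -0.77 without RMRP, RPPH1 and transfer RNA as well. The number of sensors past the limit was 3 or 4 in RD and 4 or 5 in JR1. The median change of the sensors in RD and JR1 moved to -0.26 and -0.45 after centring, to -0.13 and -0.38 without the short structural RNA genes, and to -0.12 and -0.41 with the wider removal. It moved to -0.84 and -1.07 with a minimum of 5 TPM, which leaves out TLR3, and to -0.55 in JR1 with no minimum, which adds ZBP1. The number of sensors whose changes differed between the lines by the limit was 0, and 1, IFIH1, with 0.1 TPM added, after either removal and with a limit of 1.5-fold. These alternatives for the comparison of lines were added after seeing the data. The direction of MAVS in RD and of EIF2AK2 in RD turned above 0 after centring and after either removal. No paired analysis was possible because, within a line, each condition has 1 library, and a fit over both lines with line as a term, which would treat the lines as replicates, was not run. The unknown depth limits what can be said of TLR3 and ZBP1.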
